A study of Arabidopsis thaliana with 5 samples.

Results

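Class III peroxidases are secreted plant heme enzymes that use hydrogen peroxide to oxidise phenolic compounds. By doing so they cross-link cell wall polymers and polymerise lignin, and they can also release reactive oxygen species that loosen the wall. In roots they are known for their part in the Casparian strip, in xylem walls, in root hair growth and, under the bHLH factor UPB1, in the passage of cells out of division into elongation. The genes described here are all features of the deposited tables whose symbol is PER followed by a number, except AT5G42180, which makes 73 of 33557 features.

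RNA was profiled from Arabidopsis thaliana roots of plants labelled GFP-GrxS5 (2 libraries) and of the wild type Col-0 (3 libraries). The study asked which genes are repressed by GrxS5, a plant-specific glutaredoxin of the class that partners TGA transcription factors. The labels name green fluorescent protein joined to GrxS5 but give no promoter, number of lines, plant age, growth condition or treatment, and Col-0 is the one comparison genotype. Nothing in them states that replicates are separate plants, and the p-values therefore cover only the spread between these libraries, which may be technical. The extraction text covers roots and shoots and names 2 library kits with 2 sequencers, but does not assign them, so kit or sequencer and genotype cannot be told apart.

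The symbol rule does not return class III peroxidases alone. AT1G48130 carries the symbol PER1 in the files and is annotated by RefSeq as 1-cysteine peroxiredoxin 1, a thiol-based enzyme of another family known from seeds. It was listed at 0 in all 5 libraries and was not tested. It still counts among the 73 members, in their median transcript length and in their start regions. The same symbol stands on AT1G05240 and AT1G05250, which are class III peroxidase genes and are given here by identifier. RefSeq annotates the other 72 as peroxidases, apart from PER60 and PER73, which it calls root hair specific 18 and 19.

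GrxS5 itself (AT4G15690) reached 103.5 and 124.4 FPKM in GFP-GrxS5 roots, against 3.06, 4.14 and 3.23 FPKM in Col-0 roots. FPKM counts fragments per length of transcript and per depth of library, so levels can be compared between genes. Fragment steps in the low values put the depth near 3360000 to 4470000 fragments per library. On the median peroxidase transcript of 1342 bp a single fragment is then worth 0.167 to 0.222 FPKM, and 1 FPKM rests on 4.51 to 6.0 fragments. The root label was checked against markers. The endodermal gene CASP1 had 166 and 152 FPKM in GFP-GrxS5 libraries and 122, 131 and 143 FPKM in Col-0 libraries. The shoot photosynthesis markers, 13 genes, summed to 1380 and 1373 FPKM in GFP-GrxS5 libraries and to 581, 551 and 662 FPKM in Col-0 libraries, with 9 of the 10 tested markers higher in GFP-GrxS5 and 0 lower. The part of green tissue in the peroxidase results was not tested.

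Most of the family was expressed in these roots. Genes with at least 1 FPKM in at least 2 of the 5 libraries were tested, which kept 57 of the 73. Of the tested genes 15 averaged at least 100 FPKM over the 5 libraries, 28 averaged 10 to 100 FPKM and 14 averaged less. Of the 16 that were not tested, 9 were listed at 0 in every library, namely AT1G05240, AT1G05250, AT1G48130, PER6, PER13, PER29, PER36, PER67 and PER68. The other 7, PER14, PER33, PER41, PER46, PER48, PER58 and PER65, reached at most 0.603 FPKM in any library. No gene was listed at 0 throughout 1 genotype and reached 1 FPKM in every library of the other.

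PER42 was the most abundant transcript of the family by a wide margin, with 2521 and 2440 FPKM in GFP-GrxS5 libraries and 1900, 1970 and 1816 FPKM in Col-0 libraries. It made up 26.5% and 30.5% of the summed peroxidase FPKM in GFP-GrxS5 and 29.1%, 27.8% and 25.7% in Col-0. PER32 came next, with 11.4% and 9.02% of the sum in GFP-GrxS5 libraries and 10.2% to 10.4% in Col-0 libraries. The 10 most abundant members, PER42, PER32, PER23, PER27, PER69, PER45, PER21, PER22, PER57 and PER34, held 76.1% and 74.1% of the sum in GFP-GrxS5 and 71.6% to 73.1% in Col-0.

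**Figure D1:**
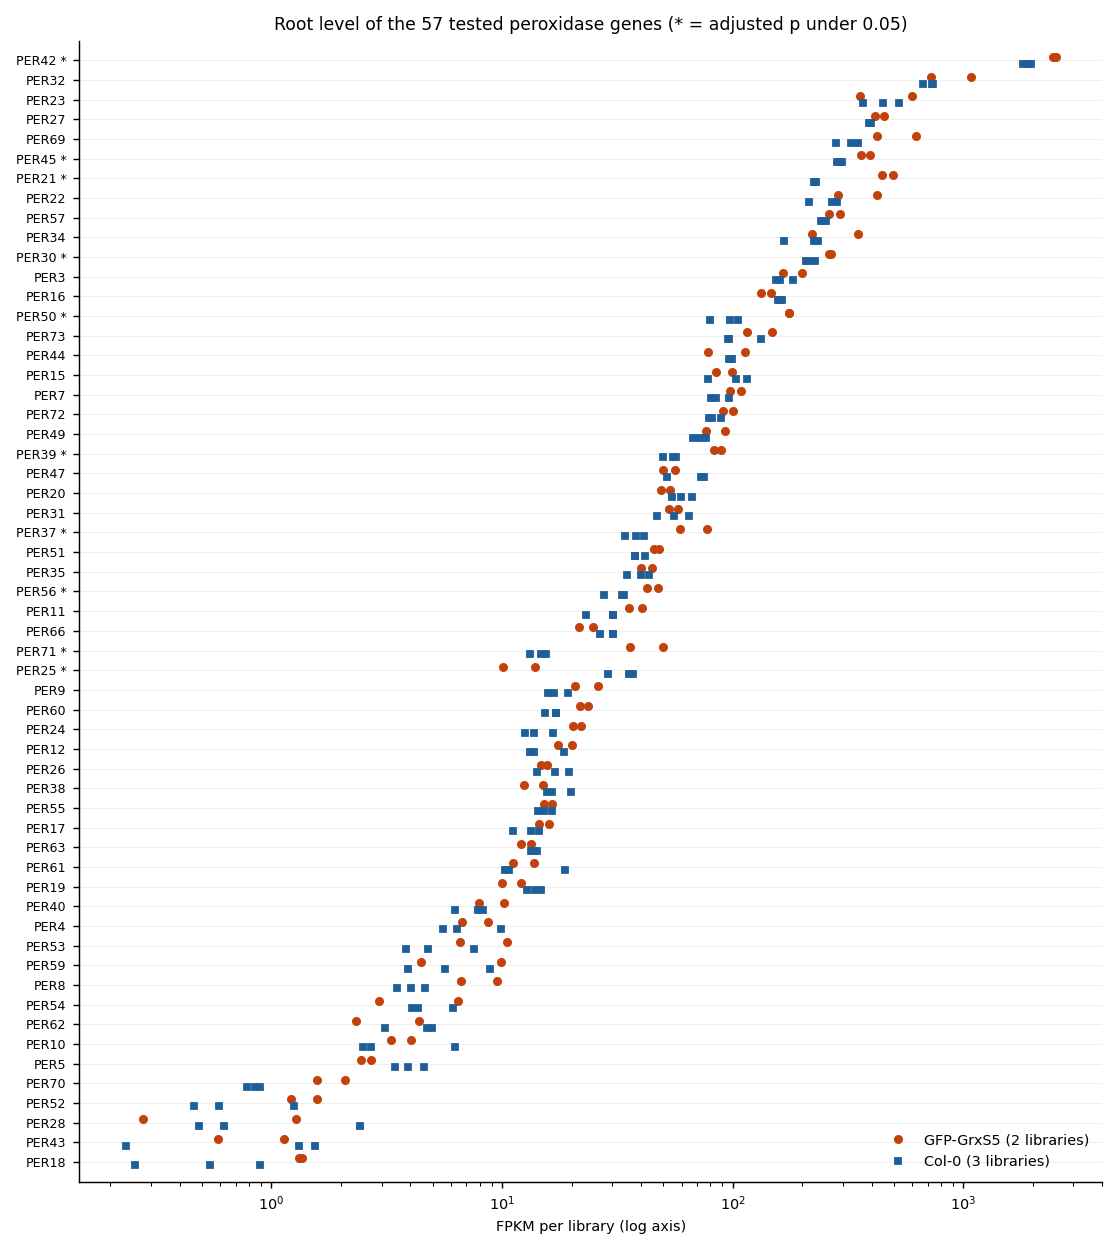
FPKM of the 57 tested peroxidase genes in each library on a log axis, ordered by their mean over the 5 libraries, with GFP-GrxS5 libraries as circles above the Col-0 libraries as squares. PER42 stands alone near the top of the scale, and PER25 is the marked gene whose circles lie left of its squares.

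Summed over the family, FPKM was higher in GFP-GrxS5 roots. The sum was 9502 and 7995 in GFP-GrxS5 libraries and 6524, 7076 and 7077 in Col-0 libraries, so the groups do not overlap. As a share of all FPKM this was 1.02% and 0.834% in GFP-GrxS5, against 0.691%, 0.765% and 0.756% in Col-0. Without PER42 the sums were 6981 and 5554 in GFP-GrxS5 and 4623, 5106 and 5262 in Col-0. In whole roots fewer or more cells of a type and less or more RNA per cell cannot be told apart.

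GFP-GrxS5 was compared with Col-0 by limma on log2(FPKM + 1) over all 19693 tested genes, with Benjamini-Hochberg adjustment over all of them and a threshold of 0.05. Every log2 change given is a difference on that scale, where low genes show less than their true fold. Of the 57 tested peroxidase genes 9 were higher and 1 was lower in GFP-GrxS5, while 47 did not pass. Of all tested genes, 4.73% were called higher, 2.35% lower and 7.08% in either direction, so the peroxidase share of 15.8% called higher lies above that background and the share of 1.75% called lower is near it. Among genes averaging at least 20 FPKM, a limit chosen after the values were seen, 9 of 32 peroxidase genes were higher and 1 was lower, against 7.68% higher and 4.17% lower of 8266 genes. The median log2 change was 0.22 over the tested peroxidase genes and 0.01 over all tested genes. PER18 and PER70 passed the expression filter through their GFP-GrxS5 libraries alone. Both GFP-GrxS5 libraries lay above all Col-0 libraries for 25 peroxidase genes, a share of 43.9% where the background is 22.6%. The filter itself fixed this order for PER18 and PER70. Without genes that passed it through 1 genotype alone, the count was 23 of 55 peroxidase genes, or 41.8%, where the background is 22.4%. They lay below for 8, a share of 14.0% where the background is 20.3%. In either direction 33 members, or 57.9%, did not overlap between the genotypes, against 42.8% of all tested genes.

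**Figure D2:**
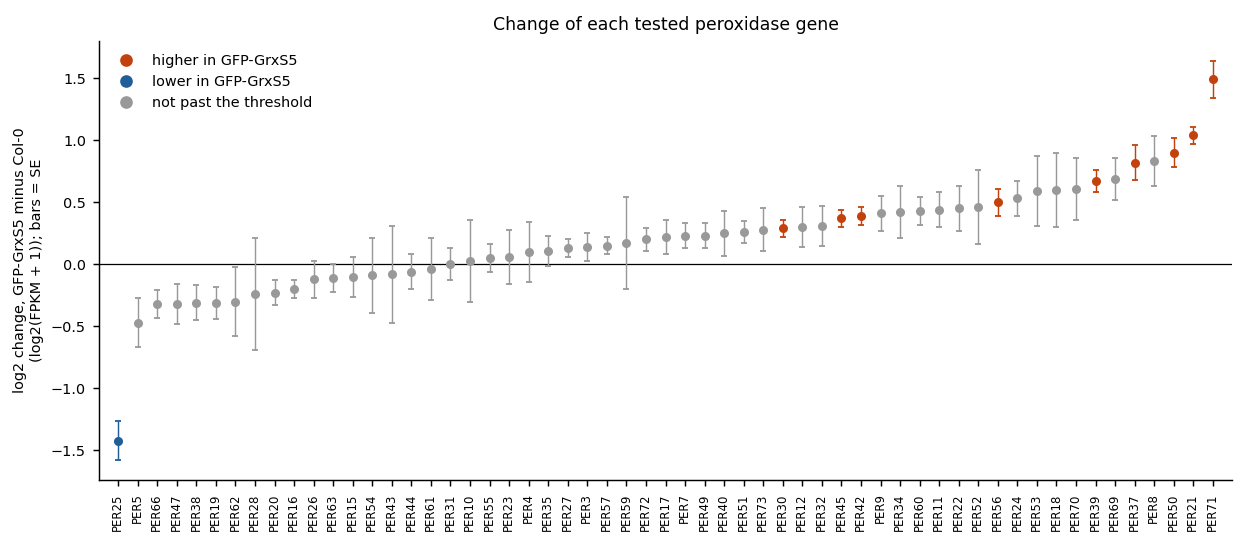
Log2 change of each tested peroxidase gene, GFP-GrxS5 minus Col-0 on log2(FPKM + 1), with standard errors from limma as bars. Changes run from -1.42 for PER25 to 1.49 for PER71, and 39 of the 57 points lie above 0.

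The largest rise was that of PER71 (AT5G64120), which is known for acting on cell walls and limiting cell growth and has been tied to lignin in stems. It had 50.1 and 35.7 FPKM in GFP-GrxS5 libraries, against 13.2, 15.5 and 14.7 FPKM in Col-0 libraries. Both GFP-GrxS5 values lie above all Col-0 values, and they differ from each other by more than the Col-0 values do. The log2 change was 1.49 (SE 0.15; limma, Benjamini-Hochberg adjusted p = 0.00295). PER21 (AT2G37130), an abundant member, had 496 and 445 FPKM in GFP-GrxS5 libraries and 227, 230 and 226 FPKM in Col-0 libraries. Its Col-0 libraries were nearly identical, with a mean of 228 ± 2.36 FPKM (SD, n = 3), against 471 ± 35.7 FPKM (SD, n = 2) in GFP-GrxS5. The log2 change of PER21 was 1.04 (SE 0.07; limma, Benjamini-Hochberg adjusted p = 6.45e-04).

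PER25 (AT2G41480), a gene tied to lignin in stems, was the member that fell. It had 10.1 and 13.9 FPKM in GFP-GrxS5 libraries, against 28.7, 36.8 and 35.4 FPKM in Col-0 libraries. The highest GFP-GrxS5 value is below every Col-0 value. PER25 had a log2 change of -1.42 (SE 0.16; limma, Benjamini-Hochberg adjusted p = 0.00398). PER71, PER21 and PER25 kept their calls in all 14 processing alternatives, and no other called member did.

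The start regions of these genes are shown because GrxS5 belongs to a class whose partners, the TGA factors, bind TGACG. Each stretch runs from 250 bases before to 50 bases after the RefSeq gene start on TAIR10.1, read along the gene, and capitals mark TGACG or its reverse complement. PER71 lies on the minus strand at chr5:25660958-25661257, PER21 on the minus strand at chr2:15600105-15600404 and PER25 on the minus strand at chr2:17298676-17298975.
PER71: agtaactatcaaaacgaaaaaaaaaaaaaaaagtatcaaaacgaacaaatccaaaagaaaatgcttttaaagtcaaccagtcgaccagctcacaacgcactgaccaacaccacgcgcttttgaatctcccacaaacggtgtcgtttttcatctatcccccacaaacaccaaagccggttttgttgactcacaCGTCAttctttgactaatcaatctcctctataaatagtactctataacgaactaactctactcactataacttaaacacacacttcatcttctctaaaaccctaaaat
PER21: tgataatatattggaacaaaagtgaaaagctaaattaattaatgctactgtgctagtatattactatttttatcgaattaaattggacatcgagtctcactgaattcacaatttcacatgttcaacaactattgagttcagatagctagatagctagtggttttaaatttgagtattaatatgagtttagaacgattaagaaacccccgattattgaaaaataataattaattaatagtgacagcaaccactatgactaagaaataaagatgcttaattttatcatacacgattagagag
PER25: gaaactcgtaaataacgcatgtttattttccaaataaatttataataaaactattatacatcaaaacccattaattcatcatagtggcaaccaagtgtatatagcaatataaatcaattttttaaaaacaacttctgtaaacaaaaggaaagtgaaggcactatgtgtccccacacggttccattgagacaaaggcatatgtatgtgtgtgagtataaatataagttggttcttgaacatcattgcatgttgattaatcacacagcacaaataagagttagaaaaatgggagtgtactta
The PER71 window holds a single match, on the opposite strand, whose leftmost base lies 58 bases before the start. No match is in the other windows. TGACG on either strand was present in 1 of the 10 windows of called peroxidase genes, in 7 of the 47 of tested and uncalled ones and in 12 of all 73. The share over all members was 16.4%, against 23.1% of the 26689 protein-coding genes in the files. A match is a string of letters and does not show that a factor binds there.

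PER39, PER50 and PER37 also rose. PER39 (AT4G11290), a peroxidase of the Casparian strip that UPB1 is known to bind and repress, had 88.8 and 83.2 FPKM in GFP-GrxS5 libraries and 49.9, 55.0 and 56.7 FPKM in Col-0 libraries. Its log2 change was 0.67 (SE 0.09; limma, Benjamini-Hochberg adjusted p = 0.00629). Leaving out GFP-GrxS5 replicate 1 ended the call (limma, Benjamini-Hochberg adjusted p = 0.0592, the highest of the alternatives, with 0.00526 the lowest). PER50 (AT4G37520) had 175.2 and 175.0 FPKM in GFP-GrxS5 libraries and 79.4, 97.2 and 106 FPKM in Col-0 libraries. Its log2 change was 0.90 (SE 0.12; limma, Benjamini-Hochberg adjusted p = 0.00673), and the call was lost without either GFP-GrxS5 replicate, with adjusted p from 0.00546 to 0.0638 over all alternatives. PER37 (AT4G08770), whose overexpression is known to dwarf plants, had 77.5 and 58.8 FPKM in GFP-GrxS5 libraries and 38.1, 41.3 and 34.1 FPKM in Col-0 libraries. Its log2 change was 0.82 (SE 0.14; limma, Benjamini-Hochberg adjusted p = 0.0142). The call was lost without a variance trend, without GFP-GrxS5 replicate 1 and with replicate numbers as a block (limma, Benjamini-Hochberg adjusted p up to 0.0853).

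PER42, PER45, PER30 and PER56 were called on small differences. PER45 (AT4G30170) had 394 and 359 FPKM in GFP-GrxS5 libraries and 298, 292 and 283 FPKM in Col-0 libraries. PER30 (AT3G21770) had 267 and 262 FPKM in GFP-GrxS5 libraries and 208, 226 and 213 FPKM in Col-0 libraries. PER56 (AT5G15180) had 47.6 and 42.5 FPKM in GFP-GrxS5 libraries and 27.7, 33.1 and 33.9 FPKM in Col-0 libraries. None of these 4 genes has overlapping groups, but they were chosen by a call on the same libraries. Over all tested genes 42.8% do not overlap. Their log2 changes were 0.39 for PER42, 0.37 for PER45, 0.29 for PER30 and 0.50 for PER56 (limma, Benjamini-Hochberg adjusted p = 0.0233, 0.0238, 0.0455 and 0.0434). Each of the 4 calls was lost without any 1 of the 5 libraries, without a variance trend and with the replicate block. PER42 also lost it with no filter and under quantile normalization, where its log2 change was 0.12. PER30 and PER56 also lost it with no filter and under each of the 3 alternative scalings. Over all alternatives the limma Benjamini-Hochberg adjusted p ran up to 0.349 for PER42, 0.156 for PER45, 0.22 for PER30 and 0.188 for PER56.

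**Figure D3:**
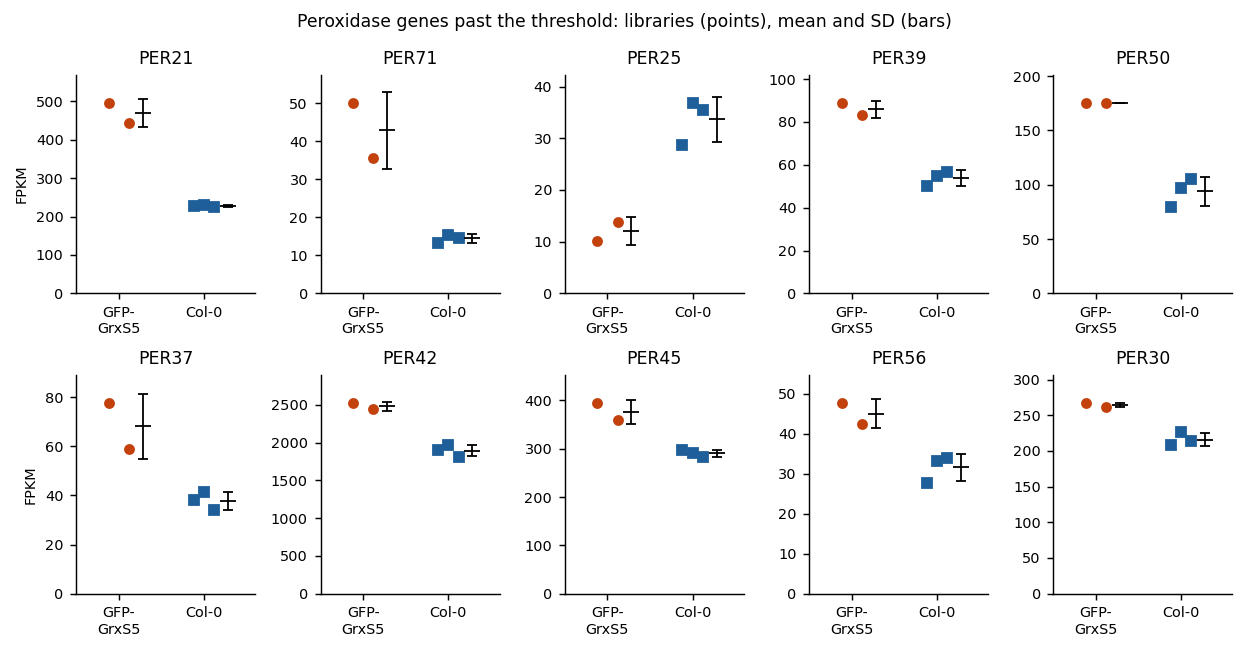
FPKM of the 10 called peroxidase genes on linear axes from 0, with GFP-GrxS5 libraries (circles, n = 2) left of Col-0 libraries (squares, n = 3) and the mean with its SD beside each group. The groups do not overlap in any panel, in genes chosen by a call on these libraries, where 42.8% of all tested genes do not. PER25 is the panel with the lower GFP-GrxS5 values.

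The 9 members that rose summed to 4117 and 3901 FPKM in GFP-GrxS5 libraries and to 2841, 2960 and 2783 FPKM in Col-0 libraries. The other members summed to 5385 and 4093 FPKM in GFP-GrxS5 and to 3683, 4115 and 4294 FPKM in Col-0. In that remainder GFP-GrxS5 replicate 2 lies among the Col-0 libraries and replicate 1 lies above them. These sums are descriptions, since the rising members were chosen by the same comparison.

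The GFP-GrxS5 libraries differed from each other across the family. Replicate 1 was above replicate 2 for 41 of the 57 tested peroxidase genes, or 71.9%, against 45.7% of all tested genes. Among the 15 members averaging at least 100 FPKM it was above in 14, all except PER16, against 41.0% of the 1684 genes at that level. As a ratio, the gap was widest among these 15 members for PER23 (1.68), with 598 and 357 FPKM in GFP-GrxS5 replicates 1 and 2, against 367, 447 and 526 FPKM in Col-0. PER32 had 1082 and 721 FPKM in GFP-GrxS5 replicates 1 and 2 and 668, 737 and 731 FPKM in Col-0. PER34, whose product takes part in the oxidative burst of defence, had 349 and 220 FPKM in GFP-GrxS5 replicates 1 and 2 and 167, 235 and 226 FPKM in Col-0. In all 3 genes replicate 1 is above every Col-0 library and replicate 2 is within or below the Col-0 range. Their log2 changes were 0.06, 0.31 and 0.42 and none passed (limma, Benjamini-Hochberg adjusted p = 0.892, 0.269 and 0.272). PER32 passed without GFP-GrxS5 replicate 2, with a log2 change of 0.61 (limma, Benjamini-Hochberg adjusted p = 0.0368, the lowest of the alternatives, with 0.918 the highest). Without GFP-GrxS5 replicate 1, 2 members were called higher, beside 225 of all tested genes, and the family median was 0.10. Without replicate 2, 6 members were called higher, beside 258 of all tested genes, and the median was 0.30. The source of the gap between these 2 libraries was not tested.

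Of 5 members known from root hairs, AT1G05240 was listed at 0 and the other 4 were tested, with a median log2 change of 0.26. None of the 4 was called, which with 7.08% of all tested genes called says nothing particular about them. PER60 had 23.6 and 21.8 FPKM in GFP-GrxS5 libraries and 17.2, 15.3 and 17.2 FPKM in Col-0 libraries (limma, Benjamini-Hochberg adjusted p = 0.0578). Its groups do not overlap, and with a filter of 5 FPKM it passed (limma, Benjamini-Hochberg adjusted p = 0.0447, the lowest of the alternatives, with 0.208 the highest). PER7 had 109 and 97.2 FPKM in GFP-GrxS5 and 84.9, 80.9 and 96.5 FPKM in Col-0. PER73 had 148 and 115 FPKM in GFP-GrxS5 and 96.1, 95.6 and 132 FPKM in Col-0. PER44, which acts in root hair wall assembly, had 113 and 78.2 FPKM in GFP-GrxS5, on both sides of 96.5, 98.5 and 99.1 FPKM in Col-0 (limma, Benjamini-Hochberg adjusted p = 0.196, 0.336 and 0.828 for PER7, PER73 and PER44). Of 6 root hair markers outside the family, 1 was higher and 0 were lower, with sums of 312 and 277 FPKM in GFP-GrxS5 and 231, 233 and 263 FPKM in Col-0. With 4.73% of all tested genes called higher, 1 call among 6 says nothing particular about them. The marker that rose was the wall protein gene PRP3, with 133 and 112 FPKM in GFP-GrxS5 libraries and 84.6, 84.9 and 97.3 FPKM in Col-0 libraries (limma, Benjamini-Hochberg adjusted p = 0.0418). Its call was lost in 11 alternatives, the removal of any 1 library included, with adjusted p from 0.0362 to 0.18 over all of them.

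Of 3 genes known to be bound by UPB1, PER39 rose and PER40 and PER57 did not pass. Over all tested genes 4.73% were called higher, and a list of 3 is too short to set against that. PER57 had 291 and 261 FPKM in GFP-GrxS5 and 249, 242 and 255 FPKM in Col-0. PER40 had 10.2 and 7.94 FPKM in GFP-GrxS5 and 8.25, 6.22 and 7.85 FPKM in Col-0 (limma, Benjamini-Hochberg adjusted p = 0.258 and 0.427 for PER57 and PER40). UPB1 itself had 40.9 and 44.6 FPKM in GFP-GrxS5 libraries, within the range of 42.5, 39.1 and 43.2 FPKM in Col-0 libraries or just above it (log2 change 0.04, SE 0.09; limma, Benjamini-Hochberg adjusted p = 0.826). Of the 5 regulators listed, UPB1, MYB30, RSL4, RHD6 and MYB36, 0 were called in either direction, where 7.08% of all tested genes were.

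Of 11 members tied to lignin or the Casparian strip, 2 rose (PER39 and PER71), 1 fell (PER25) and 8 did not pass. Their median log2 change was 0.20. Over all tested genes 4.73% were called higher and 2.35% lower. The list was written with earlier results of these data known, so its counts are descriptions. Among the Casparian strip peroxidases, PER3 had 200 and 165 FPKM in GFP-GrxS5 and 154, 160 and 182 FPKM in Col-0. PER72 had 101 and 90.5 FPKM in GFP-GrxS5 and 78.9, 81.4 and 88.6 FPKM in Col-0. PER9 had 26.0 and 20.7 FPKM in GFP-GrxS5 and 16.8, 15.8 and 19.3 FPKM in Col-0. The groups do not overlap for PER72 and PER9, and none of these 3 passed (limma, Benjamini-Hochberg adjusted p = 0.478, 0.203 and 0.123 for PER3, PER72 and PER9). The endodermis markers gave 1 higher and 0 lower of 9 tested, with sums of 466 and 420 FPKM in GFP-GrxS5 and 367, 374 and 388 FPKM in Col-0. The marker that rose was CASP5, a Casparian strip membrane protein gene, with 6.85 and 8.45 FPKM in GFP-GrxS5 libraries and 3.18, 4.06 and 4.04 FPKM in Col-0 libraries (limma, Benjamini-Hochberg adjusted p = 0.0342). Its call was lost in 7 of 14 alternatives, the removal of any 1 library included, with adjusted p from 0.0331 to 0.174 over all of them. The part of endodermal tissue in the PER39 rise was not tested.

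PER66 and PER47, which act in xylem and vascular tissue, pointed down without passing. PER66 had 21.5 and 24.7 FPKM in GFP-GrxS5 and 30.2, 26.7 and 30.3 FPKM in Col-0. PER47 had 49.7 and 56.0 FPKM in GFP-GrxS5 and 52.1, 73.0 and 75.4 FPKM in Col-0 (limma, Benjamini-Hochberg adjusted p = 0.127 and 0.273 for PER66 and PER47). Of 8 xylem markers 0 were called, where 7.08% of all tested genes were, and their median log2 change was 0.02. The remaining lignin genes did not pass. PER17 had 14.4 and 15.9 FPKM in GFP-GrxS5 and 11.1, 14.4 and 13.3 FPKM in Col-0, with both GFP-GrxS5 values above Col-0 before rounding (log2 change 0.22). PER4 had 6.71 and 8.69 FPKM in GFP-GrxS5 and 6.35, 5.53 and 9.86 FPKM in Col-0. PER52 had 1.22 and 1.57 FPKM in GFP-GrxS5 and 0.594, 0.459 and 1.25 FPKM in Col-0, a level at which each library rests on a handful of fragments.

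In the group tied to defence and stress, with 3 of 4 members tested, 0 were called. With 7.08% of all tested genes called, this count says nothing particular about the group. PER69 had 626 and 421 FPKM in GFP-GrxS5 libraries and 282, 349 and 327 FPKM in Col-0 libraries. Both GFP-GrxS5 values lie above all Col-0 values, but far apart. Its log2 change was 0.69 (SE 0.17; limma, Benjamini-Hochberg adjusted p = 0.052). It passed with a filter of 5 FPKM and without GFP-GrxS5 replicate 2 (adjusted p from 0.0287 to 0.168 over all alternatives). PER62 had 4.38 and 2.32 FPKM in GFP-GrxS5 and 3.11, 4.96 and 4.72 FPKM in Col-0.

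Laccases and NADPH oxidases work beside class III peroxidases in the wall. Of the 17 laccases, copper enzymes that also polymerise lignin, 16 were tested, with a median log2 change of 0.16. Among these 1 was higher and 0 were lower, which with 4.73% of all tested genes called higher says nothing particular about laccases. LAC7 (AT3G09220) was the one that rose, with 64.2 and 54.4 FPKM in GFP-GrxS5 libraries and 26.1, 33.5 and 33.6 FPKM in Col-0 libraries. LAC7 had a log2 change of 0.91 (SE 0.14; limma, Benjamini-Hochberg adjusted p = 0.0102), and the call was lost without GFP-GrxS5 replicate 1 (adjusted p = 0.0874, the highest of the alternatives, with 0.00809 the lowest). RBOH genes encode the NADPH oxidases that supply superoxide outside the cell. Of 10 such genes 8 were tested and 0 were called, with a median log2 change of -0.07. With 7.08% of all tested genes called, this count says nothing particular about them.

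Members lie next to each other, less than 10 kb apart, in 14 pairs. In 6 of these pairs the coding sequences were at least 90% identical, and in the other 8 they were 50.8% to 80.8% identical. AT1G05240 and AT1G05250, 2919 bases apart on chromosome 1, have identical coding sequences of 978 bases, and of the 50-base words in their RefSeq transcripts 59.4% and 100% occur in another annotated gene. Both were listed at 0 in all 5 libraries. The sources used here do not say how reads that match 2 genes were treated, so these zeros cannot be read as a lack of transcript. PER37 and PER38 share 93.8% of their coding sequence and PER50 and PER51 share 92.4%. The opening 90 coding bases of each pair show how much there is to tell the copies apart, with capitals at the bases that differ.
AT1G05240: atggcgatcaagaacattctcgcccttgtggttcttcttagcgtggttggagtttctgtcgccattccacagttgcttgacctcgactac
AT1G05250: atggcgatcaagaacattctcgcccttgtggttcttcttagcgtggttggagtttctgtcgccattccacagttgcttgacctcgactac
PER37: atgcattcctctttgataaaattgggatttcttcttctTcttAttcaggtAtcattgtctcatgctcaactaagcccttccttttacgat
PER38: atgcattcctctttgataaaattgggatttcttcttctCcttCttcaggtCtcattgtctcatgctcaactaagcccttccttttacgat
PER50: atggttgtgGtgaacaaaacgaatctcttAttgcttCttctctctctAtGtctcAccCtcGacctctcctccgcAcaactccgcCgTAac
PER51: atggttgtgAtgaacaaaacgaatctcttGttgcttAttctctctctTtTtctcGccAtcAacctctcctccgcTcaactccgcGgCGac
In this stretch the identical pair differs at 0 bases, PER37 and PER38 at 3 and PER50 and PER51 at 12. Reads of PER37, PER38, PER50 and PER51 could be split wrongly in part, since 17.6% of the 50-base words of PER38, 7.78% of those of PER37 and 6.3% of those of PER50 also occur in another gene. That gene can be any annotated one and need not be the neighbouring copy.

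In 2 of these pairs 1 copy rose and the other did not pass. PER38 had 15.0 and 12.4 FPKM in GFP-GrxS5 libraries and 16.4, 15.6 and 19.8 FPKM in Col-0 libraries, below all Col-0 values where its neighbour PER37 was above them (limma, Benjamini-Hochberg adjusted p = 0.243 for PER38). The ratio of PER37 to PER38 was 5.15 and 4.73 in GFP-GrxS5 and 2.33, 2.64 and 1.72 in Col-0. PER51 had 48.0 and 45.7 FPKM in GFP-GrxS5 and 37.7, 37.6 and 41.5 FPKM in Col-0, on the same side as PER50 (limma, Benjamini-Hochberg adjusted p = 0.121 for PER51). The ratio of PER50 to PER51 was 3.65 and 3.83 in GFP-GrxS5 and 2.11, 2.59 and 2.55 in Col-0. Neither ratio overlaps between the genotypes. As single genes 42.8% of all tested genes do not overlap, and no such share was computed for ratios. Both pairs are shown because 1 copy was called, so a shifted ratio follows in part from that choice. Among other neighbours, the ratios of PER22 to PER23, PER69 to PER70 and PER71 to PER70 did not overlap either. Those of PER4 to PER5, PER53 to PER54 and PER58 to PER59 did overlap. PER70 was tested only because its GFP-GrxS5 libraries reached 1 FPKM, so the filter bears on both ratios that contain it. Ratios were not taken for every neighbouring pair. The difference between neighbours was not tested.

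PER69, PER70 and PER71 form a row on chromosome 5, with levels that differ by over 100-fold between PER69 and PER70 in every library. PER70 had 2.08 and 1.57 FPKM in GFP-GrxS5 and 0.844, 0.784 and 0.892 FPKM in Col-0 (limma, Benjamini-Hochberg adjusted p = 0.187). PER69 and PER71 lay higher in both GFP-GrxS5 libraries than in any Col-0 library, and PER71 was the one that passed. PER70 did too, but it was tested only because its GFP-GrxS5 libraries reached 1 FPKM, so its order adds nothing to theirs. The ratio of PER71 to PER69 was 0.080 and 0.0848 in GFP-GrxS5, against 0.0468, 0.0445 and 0.045 in Col-0. PER71 is a called gene, so this shifted ratio follows in part from its call. PER22 and PER23, with 90.6% coding identity, had a ratio of 0.704 and 0.801 in GFP-GrxS5 and 0.583, 0.605 and 0.538 in Col-0, and neither passed (limma, Benjamini-Hochberg adjusted p = 0.177 for PER22). PER22 had 421 and 286 FPKM in GFP-GrxS5 and 214, 270 and 283 FPKM in Col-0. PER33 was near 0 while PER34, with 90.4% coding identity, stood at 167 FPKM or more. Of their 50-base words 6.53% for PER33 and 6.72% for PER34 also occur in another gene, so reads could be split wrongly in part here too.

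**Figure D4:**
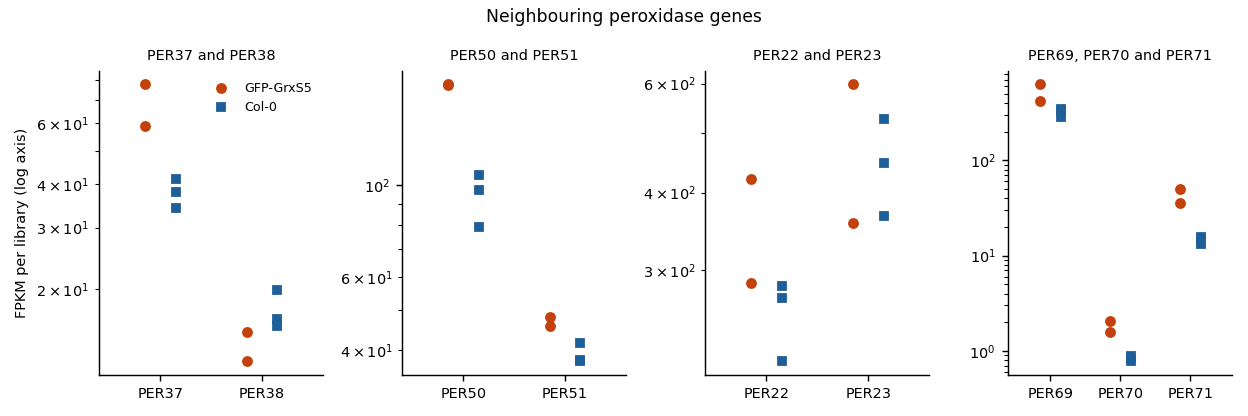
FPKM per library, on log axes, of 4 rows of neighbouring peroxidase genes, with GFP-GrxS5 as circles left of Col-0 as squares. PER37 lies above and PER38 below the Col-0 libraries, while PER69 and PER71 lie above them, as does PER70, which was tested through its GFP-GrxS5 libraries alone.

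The remaining tested members did not pass. PER27, at 453 and 413 FPKM in GFP-GrxS5 and 392, 398 and 394 FPKM in Col-0, was the most abundant of them (limma, Benjamini-Hochberg adjusted p = 0.277). PER8, at 9.46 and 6.65 FPKM in GFP-GrxS5 and 4.61, 3.49 and 4.03 FPKM in Col-0, lay just outside the threshold (limma, Benjamini-Hochberg adjusted p = 0.0516), with PER30 (0.0455) just inside it. PER16, at 133 and 146 FPKM in GFP-GrxS5 and 164, 157 and 160 FPKM in Col-0, was the most abundant member with both GFP-GrxS5 libraries below Col-0 (limma, Benjamini-Hochberg adjusted p = 0.144). Log2 changes were within 0.5 of 0 for 44 of the 57 tested members, or 77.2%, against 87.5% of all tested genes. An unadjusted limma p under 0.05 was found for 24 members, or 42.1%, against 24.3% of all tested genes.

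**Figure D5:**
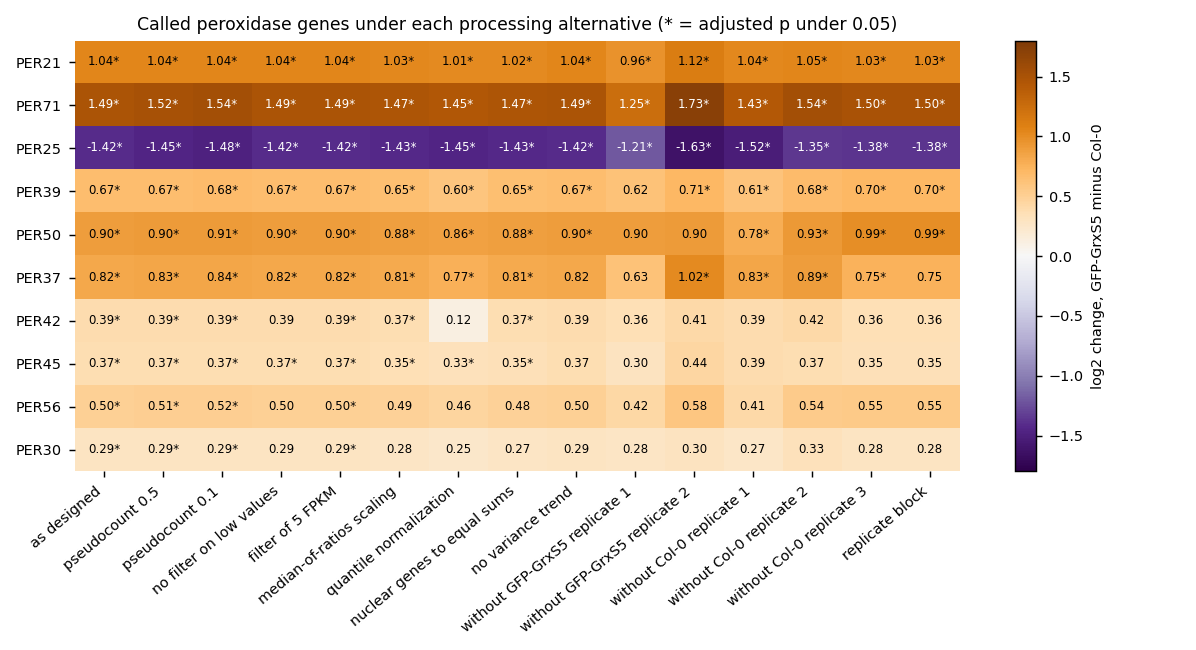
Log2 change (GFP-GrxS5 minus Col-0) of the 10 called peroxidase genes as designed and under each of 14 alternatives, with a star where the limma Benjamini-Hochberg adjusted p was under 0.05. The rows of PER21, PER71 and PER25 carry a star throughout, and no sign changes in any row.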

How the data were processed

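The authors deposited a table of FPKM values by gene for each library; rows used had status OK in all of them. Per the submitters' processing notes the build was TAIR10. For the aligner, quantification program, strand use and handling of shared reads: not given in the sources used here. Upper and lower bounds equal the FPKM in rows of status OK and were not used. Groups and replicate numbers came from the sample titles.

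Genes with at least 1 FPKM in at least 2 libraries were kept (19693) and compared with limma 3.58.1 in R 4.3.3 on log2(FPKM + 1), with a variance trend, no further scaling, two-sided, and Benjamini-Hochberg adjustment at 0.05. Residual degrees of freedom were 3 and prior ones 4.37 (median), and the procedure was tested on simulated data. The simulated spread was drawn from Col-0 libraries and was independent between genes. A gap between the GFP-GrxS5 libraries shared by many genes was therefore not covered. Depth was estimated from the FPKM value of 1 fragment. Coding identity (global alignment, Biopython 1.88) and start regions came from RefSeq's TAIR10.1. Its genes overlapped those of the files for 32812 of 32813 matched identifiers. The same start or the same end was found for only 50.18%, so the start windows depend on the RefSeq starts. Gene positions were not converted. No protein sequences were used here.

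The members and lists were chosen with earlier results of these data known. Members are named if called, among the 10 most abundant or in a literature group; PER8, PER16, PER18, PER38, PER51 and PER70 were added after their values were seen, as were CASP1, MYB30, RSL4, RHD6 and MYB36 as list members. Alternatives were other pseudocounts, filters, scalings and moderation, each library left out on the same genes, and replicate numbers as a block. Same-numbered libraries did not deviate together (r of -0.04 and -0.01 across genes), so the numbers were not taken as pairs. Pearson correlations across genes were 0.975 to 0.979 within and 0.96 to 0.965 between genotypes.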

Additional observations from a re-analysis of the deposited data

How the results depend on the processing

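The 31 tested peroxidase genes named by rule gave 432 values over 14 alternatives, of which 378 kept direction and side of the threshold, 44 lost a call, 4 gained one and 6 changed sign. The sign changes were all of uncalled genes with 1 library left out, over which the log2 change ran from -0.061 to 0.320 for PER4, -0.308 to 0.435 for PER23, -0.322 to 0.20 for PER44 and -0.646 to 0.051 for PER62. A filter of 5 FPKM gave no value for PER52 and PER62. The count of peroxidase genes called higher, 9 as designed, was 4 without a variance trend, 4 with the replicate block and 2 to 6 with 1 library left out, while the count called lower was 1 in every alternative. The family median of 0.218 was 0.099 to 0.304 with 1 library left out. Over all genes, 932 higher and 462 lower became 398 and 184 without a variance trend, 418 and 176 with the replicate block, and 225 to 585 higher and 141 to 235 lower with 1 library left out. Calls were 66.9% higher as designed and 54.9% under quantile normalization, where 6 peroxidase genes were higher and 1 lower. Among the related lists, the laccase count of 1 was 2 with a filter of 5 FPKM, 2 with the replicate block and 0 to 2 with 1 library left out. The root hair marker count of 1 was 0 with no filter, median-of-ratios scaling, quantile normalization, nuclear sums, no variance trend, the replicate block or any library left out. The endodermis count of 1 was 0 with no filter, with the replicate block and with any library left out. The photosynthesis count of 9 was 5 without a variance trend and 5 to 7 with 1 library left out. The causes of these shifts were not tested, beyond the fewer samples of the fits with a library left out. Depth limits genes near 1 FPKM, such as PER18, PER43 and PER52, which rest on few fragments.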
